A study of Ovis aries with 10 samples.

Results

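Circular RNAs (circRNAs) of 2 exons were examined in skeletal muscle of ovariectomized and sham-operated sheep. A circRNA was taken when the deposited table lists it in at least 1 of the 10 libraries, types it as exonic, gives it exactly 2 exon blocks, and gives it a genomic span under 50000 bases. This rule found 2982 of the 8721 listed circRNAs (34.2%), which is 37.6% of the 7926 exonic ones. The span limit left out 32 further circRNAs of 2 blocks; the widest circRNAs inside it spanned 49966 and 49655 bases, and the narrowest outside it 50278 and 50938.

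The OR-STH group holds 5 libraries from ovariectomized small-tailed Han ewes, and the STH group holds 5 libraries from ewes of the same breed after sham surgery. Removal of the ovaries takes away the main source of estradiol, and the series asks how estrogen bears on muscle growth of females. The labels give longissimus dorsi, a muscle along the back, as the tissue, but they also name primary myoblasts and describe a culture with an estradiol series, while no sample carries a dose. They give no age and do not say that each library came from its own animal, so every p-value here measures the spread between these libraries. In such bulk RNA, fewer cells of a type and less RNA per cell cannot be told apart.

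An exonic circRNA forms when the splice donor at the end of an exon is joined to the splice acceptor at the start of the same or an upstream exon, which closes the exons into a ring. The ring has no free ends, is often longer lived than the linear mRNA of its gene, and is detected by reads across the back-splice junction. A ring of 2 exons holds 1 back-splice junction and 1 ordinary splice, across the intron between the exons. Muscle makes many circRNAs of its long structural genes, and some circRNAs of titin depend on the splicing factor RBM20 in heart muscle of other mammals.

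The libraries held 39045 to 67061 junction reads in OR-STH and 35731 to 49887 in STH, with the most in OR-STH replicate 5. The labels name no batch, and no pair of libraries held equal values. The most read circRNA of the table, a SENP6 circRNA of 4 exons, had 2001, 0, 1800, 0 and 1659 reads in OR-STH replicates 1 to 5. In STH replicates 1 to 5 it had 6172, 0, 12107, 0 and 4592 reads, and it moved the shares given below. The table lists no value of 1 read: the smallest entry is 2, and a library with no entry was entered as 0.

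The circRNAs of 2 exons were short rings drawn from a wide stretch of genome. Their spliced length, the sum of both blocks, had a median of 272 bases, and the middle 90% lay between 173 and 398 bases. The upstream block had a median of 132 bases and the downstream block 131. The upstream block was the longer in 1511 circRNAs and the downstream block in 1443, with 28 ties. The blocks thus showed no side on which the longer exon usually lay. The spliced length was a multiple of 3, so that a full turn of the ring returns to the same reading frame, in 1159 circRNAs (38.9%). The share was 38.9% in circRNAs of 1 exon, 37.3% in those of 3 exons and 38.5% in those of 4 or more.

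The distance between the blocks varied far more than the exons did. It had a median of 3935 bases and ran between 71 and 49394, with 549 circRNAs (18.4%) under 1000 bases and 805 (27.0%) at 10000 or more. In 684 circRNAs (22.9%) another exon block that the table gives to the same host gene lay in that distance, so the listed blocks are not always neighbouring exons. The blocks reached both ends of the junction in 2297 circRNAs (77.0%), exactly 1 end in 681 and neither in 4. Where an end is not reached, the listed blocks stop short of the junction, and the spliced length may be too low.

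**Figure D1:**
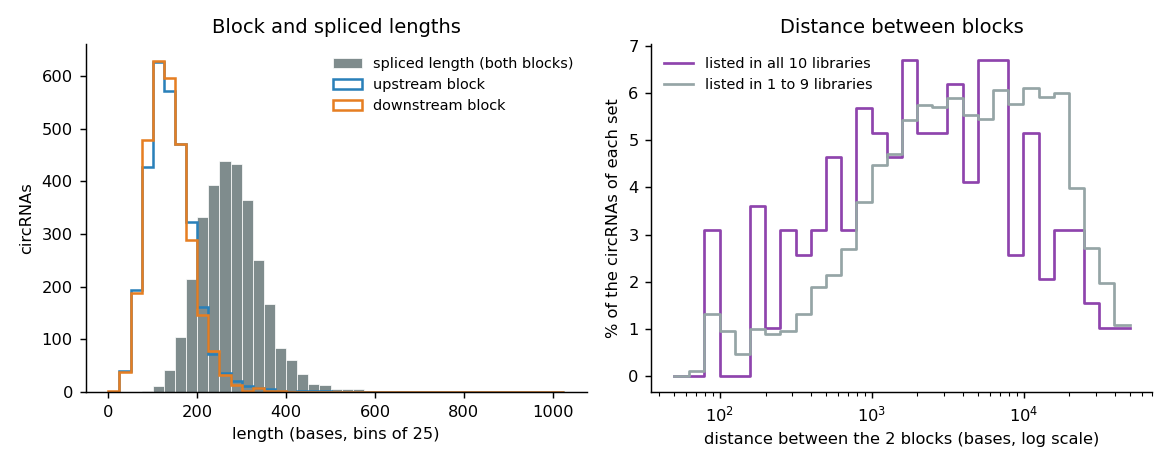
Left: number of circRNAs of 2 exons by length in bins of 25 bases, with filled bars for the spliced length and outlines for the upstream and downstream block. Right: distance between the blocks on a log axis, as a percentage of the 194 circRNAs listed in all 10 libraries and of those listed in 1 to 9. The block outlines lie over each other near their medians of 132 and 131 bases, and the curve of the 194 lies further left (median 2311 bases).

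The rings often shared a splice site with another listed ring of the same gene. Of the 2982, 1007 shared their upstream end (the acceptor) with another circRNA, 912 their downstream end (the donor), and 308 did both with different circRNAs. In all, 1611 (54.0%) shared at least 1 end. The share was 47.6% for circRNAs of 1 exon, 56.9% for 3 exons and 65.2% for 4 or more. Both blocks lay together inside a circRNA of 3 or more exons in 395 cases (13.2%), whereas only 21 circRNAs had 1 of their blocks listed as a 1-exon ring too.

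In 22 pairs that include a circRNA of 2 exons, 1 end was equal and the other differed by at most 12 bases. The offset was 3 bases in 14 pairs, at the upstream end in 12 of these, and 4 bases in another 4 pairs. Acceptors 3 bases apart are a known form of alternative splicing in mammals; the sequence at these ends was not examined here. The clearest pair lies in TTN, which encodes the sarcomeric spring titin. There novel_circ_0002388 and novel_circ_0002394 start at 131449468 and 131449471 on the plus strand of chromosome 2, in the coordinates of the files, and both end at 131450690. They had 8114 and 111 junction reads, so the copy that starts earlier took nearly all of them. For ZNF532 the pair, also 3 bases apart, had 567 and 2 reads. An LRP6 pair 4 bases apart had 296 and 10, in rings other than the LRP6 ring described below.

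The 2982 circRNAs came from 1862 host genes, and 1238 of these hosts had exactly 1. Another 366 hosts had 2, 144 had 3 and 114 had 4 or more. Hosts were protein-coding genes in 2954 cases and long non-coding RNA genes in 19, by the gene table used for names. Genes of giant structural proteins of muscle and membrane had the most. TTN had 30, and NEB, whose product nebulin sets thin filament length, had 22. DMD (dystrophin) had 11, UTRN (its relative utrophin) had 9, and SYNE1 (nesprin-1, which ties nuclei to the cytoskeleton) had 9. Reads were unequally spread over them: the 30 TTN circRNAs held 8426 junction reads, nearly all in 1 of them, and the 22 of NEB held 331. Among the 1262 of these hosts with more than 1 listed circRNA of any kind, a ring of 2 exons was the most read of the gene in 587 (46.5%). Any host whose circRNAs were all of 2 exons counts among the 587.

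Most of these circRNAs were rare, and a small set carried the reads. In all 10 libraries together the 2982 held 103026 of 445393 junction reads (23.1%). Their median was 9 reads in all, 1571 had under 10, and 1184 (39.7%) were listed in 1 library alone. At the other end, 194 (6.51%) were listed in all 10 libraries and held 57.0% of the reads, and 111 circRNAs together held 50% of them. Compared with the others, the 194 had a longer spliced length and a shorter distance between the blocks: their medians were 307 and 2311 bases, against 270 and 3982.5 bases in those listed once. Their blocks reached both ends more often, in 87.1% against 76.7%. These are descriptions without a test, and a circRNA with more reads is more easily listed in every library.

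The share of rarely listed rings fell with exon number. CircRNAs of 2 exons were listed in 1 library in 39.7% of cases and in all 10 in 6.51%. For 1 exon these shares were 49.5% and 2.50%, for 3 exons 29.97% and 12.7%, and for 4 or more 18.6% and 26.3%. The median reads per circRNA were 9 for 2 exons, against 7, 14 and 32 in the other classes in the same order. Each circRNA is counted at 1 junction, so these counts were not divided by length.

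TTN novel_circ_0002388 alone held 7.88% of the reads of the class. It joins exons of 216 and 78 bases that lie 929 bases apart. It had 928, 1068, 866, 693 and 792 junction reads in OR-STH replicates 1 to 5, against 838, 521, 619, 803 and 986 in STH. The groups overlapped over nearly their whole range. The log2 fold change of OR-STH over STH was -0.10 with a standard error of 0.23, and it turned to 0.06 when libraries were scaled by their totals alone.

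STAU2, whose product binds double-stranded RNA, gave the next most read ring (chromosome 9, 49984283 to 49994334, minus strand, 434 bases). It had 347, 273, 310, 392 and 82 reads in OR-STH, against 205, 257, 211, 223 and 529 in STH. Replicate 5 of OR-STH was the lowest of all 10 libraries and replicate 5 of STH the highest. The log2 fold change of -0.48 (SE 0.58) became 0.16 without OR-STH replicate 5.

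The other 8 of the 10 most read rings each had 862 to 1282 reads. ILRUN, a regulator of inflammation and lipids, averaged 142 ± 33.7 normalized reads in OR-STH and 110 ± 29.0 in STH (SD, n = 5 each). For normalized reads, each library's junction reads were divided by its scaled size. EEFSEC, the elongation factor that brings selenocysteine to the ribosome, averaged 82.6 ± 35.5 and 133 ± 60.0 normalized reads in OR-STH and in STH. Its raw reads were 60, 69, 69, 72 and 235 in OR-STH, against 75, 139, 41, 172 and 184 in STH. The groups overlapped. OR-STH replicate 5, the library with the most junction reads, had the most raw reads of this ring among all 10. After normalization it had 146 reads, below STH replicates 2, 4 and 5.

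The remaining 6 showed the same overlap. SNRK, a kinase related to AMPK, had the smallest spread of the 10 in OR-STH relative to its mean, with 102 ± 12.1 normalized reads in OR-STH and 107 ± 20.5 in STH. KLC1 (a kinesin light chain) averaged 81.4 ± 23.6 in OR-STH and 107 ± 30.8 in STH, and ZMYM4 (a zinc finger protein) 99.4 ± 16.9 in OR-STH and 85.1 ± 15.4 in STH. ANKRD46 averaged 119 ± 36.7 in OR-STH and 95.6 ± 40.8 in STH. SENP6 (a SUMO protease) averaged 83.1 ± 22.9 in OR-STH and 91.6 ± 40.9 in STH, in a ring other than the one named above. GCFC2, a protein linked to splicing, averaged 90.9 ± 30.3 in OR-STH and 82.2 ± 24.1 in STH. Adjusted p-values of all 10 lay at 0.836 or above (limma voom with Benjamini-Hochberg adjustment over all 738 tested circRNAs).

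**Figure D2:**
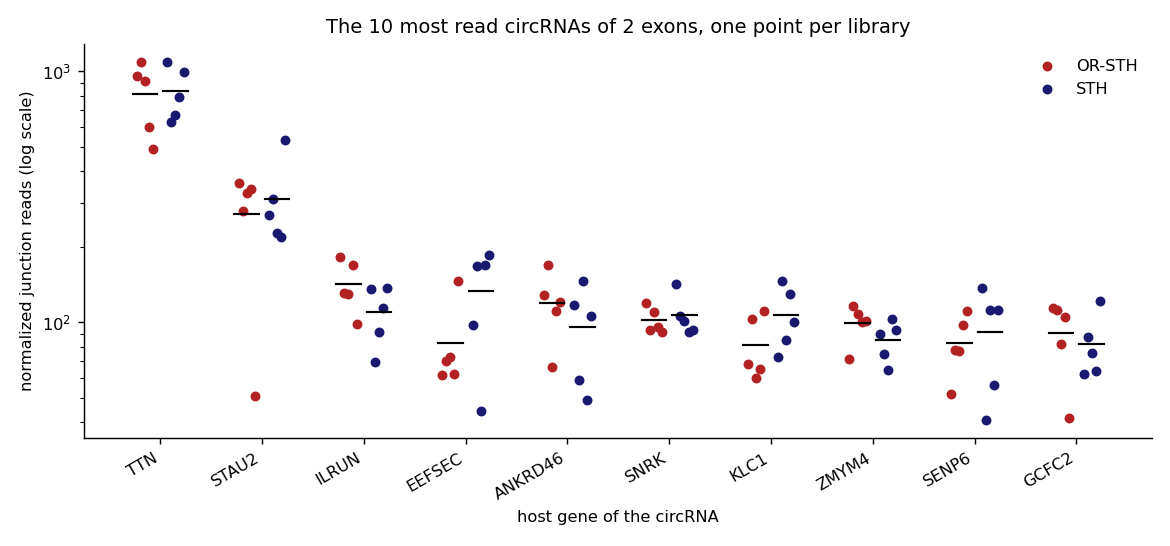
Normalized junction reads (log axis) of the 10 most read circRNAs of 2 exons, by host gene. Points are libraries, OR-STH on the left and STH on the right of each pair, and lines are group means. The groups overlap for each of the 10, and the low STAU2 point is OR-STH replicate 5.

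Some well-read rings had no entry at all in some libraries. Among the 75 with a median of at least 20 reads in the libraries that list them, 6 (8.0%) were missing somewhere, against 53 of 373 (14.2%) among all listed circRNAs. FANCM, a helicase of DNA repair, had 70, 50, 92, 41 and 34 reads in OR-STH, against 46, 0, 0, 0 and 92 in STH. It was high wherever it was listed and missing in 3 STH libraries, so in raw reads the spread within STH spanned that of OR-STH. In normalized reads the highest values were 97.1 in OR-STH and 92.9 in STH. DTWD1 was missing in OR-STH replicate 5 alone, and MB, the gene of the oxygen-binding muscle protein myoglobin, in STH replicate 1 alone. The NEB ring novel_circ_0002912 had 40 reads in OR-STH replicate 5 and 59 and 46 in STH replicates 1 and 5, with no entry in the other 7 libraries. These 4 were chosen after their values were seen.

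Many rings were listed in 1 group alone: 725 (24.3%) in OR-STH alone and 730 (24.5%) in STH alone, against 23.4% and 22.6% of all listed circRNAs. Few of them were listed in most libraries of their group. Listing in at least 4 OR-STH libraries and no STH library occurred for 5 rings, against 0.172% of all listed circRNAs. The reverse, no OR-STH library and at least 4 STH libraries, occurred for 8, against 0.275% of all. Of these, 3 were listed in all 5 STH libraries, against 0.0459% of all listed circRNAs. They were PCNT (pericentrin, of the centrosome), XPR1 (a phosphate exporter) and HELZ (an RNA helicase). Listing in all 5 OR-STH libraries and no STH library occurred for 0 rings, against 0.0115% of all. PCNT had no entry in OR-STH, against 8, 5, 3, 11 and 8 reads in STH. The other pair had 18 and 20 reads in total. No fold is given, since a missing entry can hide 1 read and these counts are small. Whether a missing entry can hide more was not tested, though rings with many reads elsewhere also lacked entries.

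The ratio of junction to non-junction reads compares a ring with other reads of its locus. What the authors counted as non-junction reads is not given in the sources used here. Pooled over the libraries, the ratio had a median of 0.0386 over all 2982 rings and of 0.137 over the 194 listed everywhere, whose quartiles were 0.0591 and 0.331. It was below 0.1 in 78 of the 194 and reached 1 or more in 9. Within the 194 it was 0.101 in the shortest of 4 equal parts by spliced length (75 to 250 bases), then 0.111 and 0.144, and 0.183 in the longest (344 to 1023 bases). These are medians of single circRNAs that share libraries, given without a test.

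Rings with more junction than other reads had few non-junction reads. TEKT3, a tektin of ciliary microtubules, had the highest ratio, 5.65, from 147 junction and 26 non-junction reads. ZNF532 followed at 3.05, MDN1 (midasin, of ribosome assembly) at 2.29, ZCCHC4 (an rRNA methyltransferase) at 1.71 and SLC35B3 (a sulfate donor transporter) at 1.63. The lowest ratios lay in strongly read muscle genes and in a translation factor. MYBPC1, a myosin-binding protein of slow fibers, had 2 of them, 0.000688 with 115 junction reads against 167087 others, and 0.00157. The less read TTN ring of the pair above had 0.00143, ACTN2 (alpha-actinin of the Z disc) 0.00438 and EIF3M 0.00467. The MB ring, missing in 1 library, had a ratio of 0.00103.

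**Figure D3:**
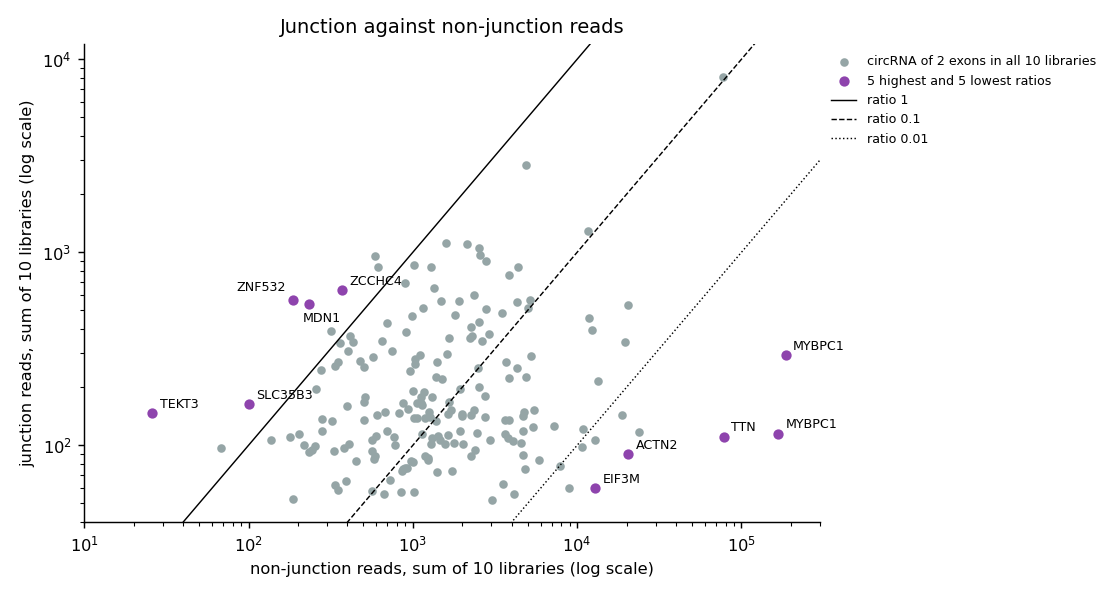
Junction reads against non-junction reads, summed over the 10 libraries (log axes), for the 194 circRNAs of 2 exons listed in all libraries. The lines mark ratios of 1, 0.1 and 0.01, and the named points are the 5 highest and 5 lowest ratios. The points spread between 0.000688 (MYBPC1) and 5.65 (TEKT3), with 9 of 194 at or above the line of 1.

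Some rings were extreme in both length and ratio. The longest of the 194 were KLHL24 (a ubiquitin ligase adaptor) with 1023 bases, of which 981 lie in its downstream exon, SNRK with 751 and TEKT3 with 692. The shortest was the MYBPC1 ring novel_circ_0004664, with listed blocks of 39 and 36 bases. UBL5 (a ubiquitin-like splicing protein) had 122 bases and BRCC3 (a deubiquitinase) 131. The blocks of the MYBPC1 and BRCC3 rings reach 1 end only, so these lengths may be too low, whereas those of UBL5 reach both.

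The ratio differed between the classes of exon number, in an order that depended on how widely the rings were listed. The pooled median was 0.0386 for 2 exons, 0.0360 for 1 exon, 0.0417 for 3 and 0.0517 for 4 or more. Within libraries, the median of 2-exon rings was above that of 1-exon rings in 8 of 10, above that of 3-exon rings in 3 of 10 and above that of 4 or more in 0 of 10. Among rings listed in all libraries the order differed: 0.137 for 2 exons, 0.188 for 1, 0.0956 for 3 and 0.136 for 4 or more.

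The size of the class overlapped between the groups. Rings of 2 exons took 23.6, 26.4, 23.4, 24.0 and 23.9% of junction reads in OR-STH replicates 1 to 5, against 20.04, 24.4, 17.8, 25.3 and 22.8% in STH. The groups overlapped, with means of 24.3 ± 1.23% in OR-STH and 22.1 ± 3.11% in STH (SD, n = 5 each). The lowest shares fell on STH replicates 3 and 1, where the 4-exon SENP6 ring was most read. Without that ring the means were 24.9 ± 0.918% and 24.5 ± 0.806%. The number of rings listed was 992 ± 105 in OR-STH and 990.6 ± 139 in STH.

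The median ratio per library was 0.0480, 0.0485, 0.0521, 0.0441 and 0.0769 in OR-STH, against 0.0446, 0.0338, 0.0380, 0.0429 and 0.0444 in STH. OR-STH replicate 5 stood above the other 9, and the groups overlapped through OR-STH replicate 4. Replicate 5 had the most junction reads but not the most non-junction reads. Summed over all listed circRNAs, it had 2688594 of the latter, against 2878433 in OR-STH replicate 4 and 3185053 in STH replicate 4. The difference of the group means was 0.0132, and 0.00742 without OR-STH replicate 5. With only rings of 10 or more reads in a library the means were 0.154 ± 0.0210 in OR-STH and 0.148 ± 0.0183 in STH. The part of depth in these values was not tested.

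**Figure D4:**
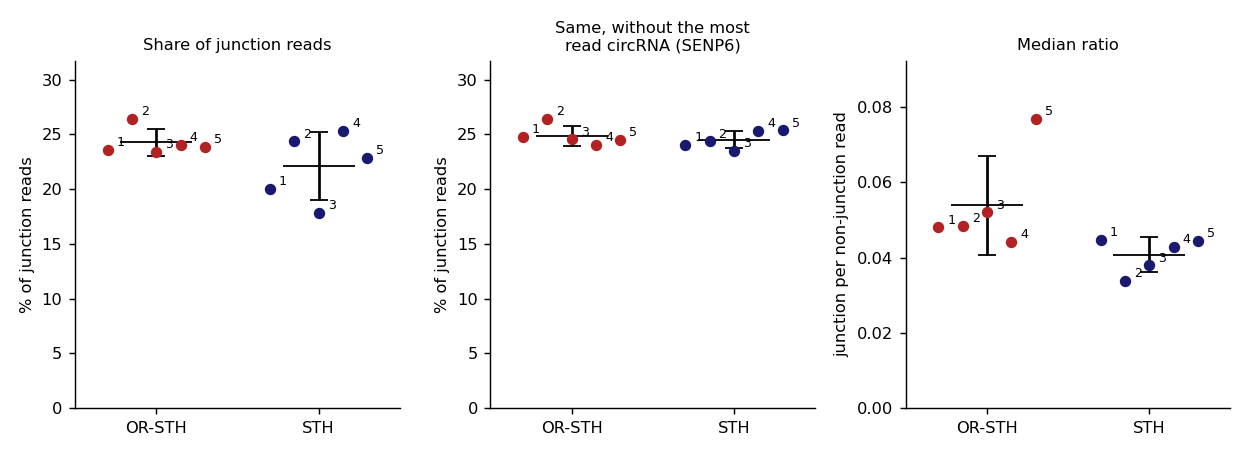
Rings of 2 exons in each library, numbered by replicate, with group mean and SD: share of junction reads, the same without the SENP6 ring of 4 exons, and median ratio of junction to non-junction reads. STH replicates 1 and 3 are low in the left panel (20.04 and 17.8%) and lie with the rest in the middle one; OR-STH replicate 5 is high in the right panel (0.0769).

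No ring of 2 exons differed between ovariectomized and sham libraries by the test. A circRNA was tested when 5 libraries reached 10 scaled reads; 738 circRNAs passed, among them 169 of the 2982, which hold 56.6% of the reads of the class. The test was limma voom over all 738 with Benjamini-Hochberg adjustment, and a call needed an adjusted p under 0.05. It called 0 of the 169, against a background of 0.0% of all tested. The smallest adjusted p of the 169 was 0.781. Without adjustment, 5 of the 169 (2.96%) had a p under 0.05, against 5.69% of all tested. Of these 1 was higher in OR-STH, against 1.22%, and 4 were lower, against 4.47%; with scaling by library totals alone the split was 4 higher and 1 lower (27 and 12 of all tested). It was 8 higher and 1 lower without OR-STH replicate 5 (22 and 12 of all tested). Without OR-STH replicate 3 it was 4 higher and 0 lower (12 and 25 of all tested), so the split has no stable direction. The groups did not overlap for 0 of the 169, against 1.36% of all tested (0.542% higher and 0.813% lower in OR-STH).

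The fold changes lay close to 0 and to the other circRNAs tested. Their median was 0.03 on the log2 scale, against -0.04 for all 738, with 87 above and 82 below 0 and 155 of 169 within 1 unit. Scaling by library totals moved the median of all tested circRNAs to 0.14 and that of the 2-exon rings to 0.20. The median standard error was 0.44, and the median coefficient of variation of normalized reads was 40.9% in OR-STH and 42.5% in STH.

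The ring with the smallest p on the higher side was LRP6 novel_circ_0005017, from the gene of a Wnt co-receptor. It had 87, 66, 46, 53 and 224 reads in OR-STH, against 38, 18, 43, 29 and 46 in STH. OR-STH replicate 3 equalled the highest STH library in raw reads, and the other 4 were above. In normalized reads the groups overlapped more: OR-STH replicates 3 and 4 had 48.6 and 45.9, below the 49.5 of STH replicate 1. The log2 fold change was 0.99 with a standard error of 0.35 and an adjusted p of 0.781, and it did not pass; with no filter on low counts it was 1.19 with an adjusted p of 0.0151. It spans 203315652 to 203323540 on chromosome 3 (plus strand), and another exon block of the gene lies between its blocks.

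The next on that side did not pass either, each at an adjusted p of 0.781. ACVR2A, an activin receptor that also binds myostatin, had a log2 fold change of 0.90 (SE 0.44), and ASB7, a subunit of ubiquitin ligases, had 0.43 (SE 0.23). The FANCM ring, with no entry in 3 STH libraries, had 3.58 (SE 1.84). ACAP2, which switches off the small GTPase ARF6, had 15, 20, 22, 24 and 24 reads in OR-STH, against 2, 6, 4, 5 and 23 in STH. STH replicate 5 lay among the OR-STH libraries and the other 4 below them, with a log2 fold change of 1.33 (SE 0.73).

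On the lower side, TANK, an adaptor of innate immune signalling, had 0, 30, 20, 21 and 0 reads in OR-STH, against 10, 25, 26, 33 and 24 in STH. Where it was listed in OR-STH its reads were like those of STH, and 2 OR-STH libraries had no entry, with a log2 fold change of -3.42 (SE 1.18). This was -1.30 without OR-STH replicate 5 and -0.59 with the replicate number as a block. RILPL1, which acts with Rab GTPases, had -0.94 (SE 0.40), FAM120A, an RNA-binding protein, -1.13 (SE 0.51) and UBE2D1, a ubiquitin-conjugating enzyme, -0.70 (SE 0.32). ACACB, the acetyl-CoA carboxylase that limits fatty acid oxidation in muscle, had -2.17 (SE 1.07) with no entry in OR-STH replicate 4. Each had an adjusted p of 0.781.

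**Figure D5:**
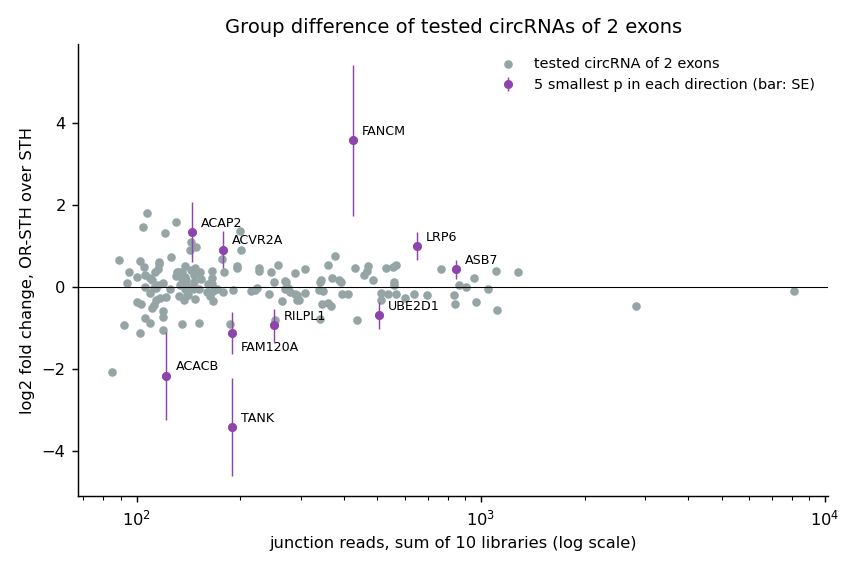
Log2 fold change of OR-STH over STH (limma voom) against summed junction reads (log axis) for the 169 tested circRNAs of 2 exons. The 5 smallest p-values in each direction are named and carry standard errors. Most points lie within 1 unit of 0, and the widest errors among the named points belong to FANCM and TANK, which lack entries in some libraries.

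Looser filters gave a few calls, among them rings already tested above. With at least 2 reads in 5 libraries, 2 of 792 tested rings of 2 exons were called, against 4 of all 2690 tested circRNAs (0.149%). The 2 rings were TANK and PCNT, both lower in OR-STH and both with missing OR-STH entries. TANK had a log2 fold change of -2.85 and an adjusted p of 0.0458 there. With no filter 8 were called, against 0.344% of all 8721; TANK and LRP6 were among them, each with an adjusted p of 0.0151. In the authors' deposited table, 29 of the 2982 had a p-value under 0.05 (0.973%), against 1.35% of all listed circRNAs. By those values 15 were higher and 14 lower in OR-STH, 0 passed its adjusted p-value, and its smallest adjusted p-value for these rings was 0.128. Only 8 of the 29 had enough reads to be tested here.

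The ratio gave no call among these rings either, though its values leaned one way. The fit used log2 of the ratio with 0.5 added to both read counts, over 735 circRNAs, 168 of them of 2 exons. It called 0 of the 168, against 0.136% of all tested, and the smallest adjusted p of the 168 was 0.290. At an unadjusted p under 0.05, 9 were higher in OR-STH, against 7.35% of all, and 1 was lower, against 0.68%. The median log2 difference was 0.34, beside 0.29 over all tested, and 134 of 168 lay above 0, beside 532 of 735. Without OR-STH replicate 5 the medians were 0.16 and 0.13. All tested circRNAs leaned the same way, and both medians were smaller without OR-STH replicate 5.

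The 3 smallest p-values on the higher side of the ratio belonged to ACAP2, GYS1 and GCFC2. ACAP2 had ratios of 0.0765, 0.126, 0.168, 0.128 and 0.171 in OR-STH, against 0.0127, 0.0296, 0.0205, 0.0368 and 0.181 in STH. Again STH replicate 5 alone lay with OR-STH, and the log2 difference was 1.77 (SE 0.57, adjusted p 0.290). Without STH replicate 5 it was 2.33 with an adjusted p of 0.0436, which passes. GYS1, the muscle glycogen synthase, had 1.09 (SE 0.37, adjusted p 0.395), and its groups overlapped.

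GCFC2 had ratios of 1.13, 0.991, 0.951, 1.11 and 2.09 in OR-STH, against 0.485, 0.584, 0.667, 0.512 and 0.945 in STH. The lowest OR-STH ratio lay just above the highest STH ratio, and the log2 difference of 0.95 (SE 0.33) had an adjusted p of 0.438. In all, the ratios of the groups did not overlap for 3 of the 168, each higher in OR-STH, against 2.31% of all tested; the reverse occurred for 0 of the 168, against 0.136%. The other 2 were SNRK and TXNDC11, named after their values were seen. SNRK had ratios of 0.420 to 0.561 in OR-STH and 0.290 to 0.371 in STH, with an adjusted p of 0.571. Its junction reads averaged nearly the same in the groups, while it had 224, 219, 195, 198 and 273 non-junction reads in OR-STH, against 294, 303, 310, 269 and 251 in STH. On the lower side RILPL1 had -0.96 (SE 0.45), MB -0.98 (SE 0.54) and PDE8A, a cyclic AMP phosphodiesterase, -1.04 (SE 0.64), with adjusted p-values of 0.571, 0.571 and 0.608.

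On the gene lists, most reads came from the TTN ring novel_circ_0002388, with 8114. Of 26 genes of the sarcomere and triad 12 hosted 84 rings of 2 exons with 9726 reads, that ring included, or 9.44% of the class. Only 4 of the 84 had enough reads to be tested, 1 above and 3 below 0 (median log2 fold change -0.21, against -0.04 over all tested), and 0 were called. The more read MYBPC1 ring had 12, 57, 38, 25 and 20 reads in OR-STH, against 13, 38, 31, 40 and 18 in STH. A list of 20 hosts of circRNAs that are abundant or were studied in muscle cells gave 55 rings with 10310 reads, TTN among them. Of 8 tested, 4 lay above and 4 below 0 (median 0.03), and 0 were called. It holds QKI, an RNA-binding protein known to promote circRNA formation, whose ring had 38, 98, 71, 35 and 99 reads in OR-STH and 42, 27, 29, 35 and 57 in STH (log2 fold change 0.45, SE 0.33).

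The pathways named in the series title or tied to estrogen hosted few reads. In the MAPK list 10 of 29 genes hosted 21 rings with 588 reads. None of the 21 was called, and NF1, a brake on RAS, had 42 reads in its most read ring. Steroid receptors and their co-regulators hosted 11 rings with 114 reads from 7 of 19 genes, led by the corepressor NCOR1 (24) and the estrogen-induced GREB1 (15). None of these 11 was tested.

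ESR1, ESR2 and GPER1, the estrogen receptors, and MAPK15 hosted no listed ring of 2 exons. FAM171A1, the host of the circRNA in the title, had 1, novel_circ_0011823, of 321 bases on chromosome 13 (29185543 to 29191802, minus strand). Whether it is the circRNA of the title was not matched by position. It had 4, 8, 18, 12 and 31 reads in OR-STH, against 5, 5, 11, 10 and 3 in STH. The groups overlapped, the highest value fell in the library with the most junction reads, and the reads were too few for the filter. After normalization that library, OR-STH replicate 5, was still the highest with 19.2 reads, beside 19.0 in OR-STH replicate 3. Normalized reads averaged 12.2 ± 6.71 in OR-STH and 7.45 ± 3.45 in STH (SD), with ranges of 4.13 to 19.2 and 3.03 to 11.9. This difference was not tested.

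The 3 lists of muscle regulators, of insulin and growth factor signalling and of protein degradation held no tested ring. Muscle regulators hosted 8 rings with 211 reads, led by the transcription factors MEF2A (53 in its most read ring) and MEF2C (29). Insulin and IGF signalling hosted 8 with 51 reads, among them the insulin receptor INSR (16) and RICTOR (8) of mTOR complex 2. Protein degradation hosted 21 with 250 reads, among them the ubiquitin ligase HUWE1 (39) and the deubiquitinase USP25 (31).

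Of the marker lists, that of muscle fibers held the most reads, 8114 of them in the TTN ring novel_circ_0002388. Of 10 fiber markers 6 hosted rings of 2 exons, 75 rings with 9554 reads, or 827 to 1201 per library in OR-STH and 647 to 1180 in STH; CKM, MYH1, MYH2 and MYH7 hosted none. Of 8 satellite cell and myoblast markers only MET did, with 8 reads, and PAX7, MYF5, MYOD1 and MYOG did not. Endothelial markers hosted 8 rings, with 5 to 17 reads per library in OR-STH and 8 to 24 in STH. Fibroblast, immune and Schwann cell markers hosted none, and of the adipocyte markers PPARG hosted 1 with 5 reads. A gene without such a ring may still be expressed, so these counts do not measure cell content or settle the label.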

How the data were processed

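Junction and non-junction reads per circRNA were deposited by the authors as counts packed in lists with sample names; 10 sample names outside the series were not used. A directional kit was used, per the labels' protocols, and HISAT2 is named in the submitters' processing notes; the sources used here give neither circRNA caller nor genome build. The authors' other deposited table gives the group means of a normalized read signal, a log2 fold change (STH over OR-STH by the signs of these means) and p-values, raw and adjusted. Coordinates are the files' own, with starts counted from 1; names and chromosomes came through host gene IDs from a gene table of assembly ARS-UI_Ramb_v3.0 (2973 of 2982 IDs found).

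The deposited count columns are packed, and a count model was not run. Counts were unpacked, circRNAs kept with 10 reads (scaled to the median library) in at least 5 libraries and 15 in total, scaled by trimmed mean of M values (30% of log ratios and 5% of abundances trimmed) and fitted with limma voom (limma 3.58.1, statmod 1.5.0, R 4.3.3): group as the term, robust variances, Benjamini-Hochberg adjustment over all tested. The ratio was fitted with limma trend on log2((junction + 0.5)/(non-junction + 0.5)), leaving out libraries without an entry and requiring 3 with one in each group. Both were run on counts simulated with known changes, without the missing entries of these data. The outcome is not given here and is no support for the results. Correlations between libraries showed no clear pairing by replicate number, which so few libraries cannot settle.

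The class of circRNAs, the 7 gene lists and the markers were chosen with earlier results of these data known. The text names the 10 most read, the 5 smallest p per direction (3 for the ratio), extremes of ratio and length, hosts with most rings, the study's genes and the 2 most read hosts per list; 1 of these is not reported here. Alternatives were other scalings, filters, variance models, pseudocounts, a replicate block, no span limit and leaving out each library. Junction reads per library limit the precision: 1571 of the 2982 circRNAs had under 10 reads in all.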

Additional observations from a re-analysis of the deposited data

Results flagged for a closer look

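In each group of 5 libraries, a value was marked when its gap to the nearest other library was over 0.71 of the range of the group, which chance gives in about 1 in 20 groups. This held in 15 of 119 groups of values. Marks on circRNAs listed in few libraries follow from the many entries of 0.

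OR-STH replicate 5 was marked most often. It had 67061 junction reads, against 39045 to 46968 in the other OR-STH libraries, and a median ratio of junction to non-junction reads of 0.0769, against 0.0441 to 0.0521. Its STAU2 ring had 50.8 normalized reads, against 278 to 359 in the other 4, its EEFSEC ring 146, against 62.0 to 72.8, and its NEB ring 24.8, against 0. OR-STH replicate 2 had the highest share of junction reads in rings of 2 exons, 26.4%, against 23.4 to 24.0%.

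In STH, replicate 5 had 534 normalized reads of the STAU2 ring, against 219.5 to 309 in the other 4, and 23.2 of the ACAP2 ring, against 2.60 to 7.22. Replicate 1 had 142 of the SNRK ring, against 91.5 to 106, and replicate 3 had 19.4 of the MYBPC1 ring novel_circ_0004664, against 6.51 to 7.22.

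The rest are rings listed once in a group of 5. INSR had 6.07 normalized reads in OR-STH replicate 4 and RICTOR 3.10 in OR-STH replicate 1. In STH, RICTOR had 6.02 in replicate 2, NCOR1 7.81 in replicate 1 and GREB1 1.97 in replicate 4.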

How the results depend on the processing

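Calls by junction reads stayed at 0 under other scalings, the limma trend, the replicate block and leaving out each library; they were 2 with at least 2 reads in 5 libraries and 8 with no filter. Calls by the ratio stayed at 0 except 1 without STH replicate 5 (ACAP2), a range of 0 to 1 over the left-out libraries. No clear pairing by replicate number was seen (same-numbered correlations of deviations -0.11 to 0.18, best with the own number in 2 of 5). So few libraries cannot settle whether they were paired. The replicate block called 0 of these rings and 3 of all 738. At an unadjusted p under 0.05 it had 4 of these rings higher and 5 lower, against 14 and 33 of all tested. Of 420 alternative values of the 28 named fold changes, 391 kept direction and side of the threshold, 4 passed it anew and 25, in 6 rings, changed sign, none of them called; the cause was not tested. Library totals alone gave TTN 0.060, SENP6 0.12 and SNRK 0.11. With 2 reads in 5 libraries SENP6 had 0.044; with no filter SENP6 had 0.15, GCFC2 -0.036 and SNRK 0.011. The replicate block gave FANCM -0.12. Leaving out each library gave ranges of -0.20 to 0.11 for TTN, -0.041 to 0.38 for GCFC2, -0.24 to 0.15 for SENP6, -0.63 to 0.16 for STAU2 and -0.094 to 0.051 for SNRK. The difference in share of junction reads (OR-STH minus STH, 2.20 percentage points) ranged over 1.13 to 3.01, and was 0.335 without the 4-exon SENP6 ring. Depth limits these results: 169 of 2982 rings could be tested, and entries start at 2 reads.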
